A study of Mus musculus with 10 samples.

Results

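The genes described here are 10 transcription factors of the prostate lineage, out of 30142 genes measured under a single symbol in sorted mouse prostate luminal cells. They were taken by symbol, from a list drawn up with earlier results of these data known. They are the homeobox genes Hoxb13, Hoxa13 and Hoxd13, the forkhead gene Foxa1, the zinc finger gene Gata2, the ETS genes Spdef, Ehf and Elf3, the grainyhead gene Grhl2, and Trp63. Each of the 10 was read from 1 row of the array annotated with that symbol alone.

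In the prostate the response to androgen depends on lineage factors bound to chromatin. Foxa1 and Gata2 open chromatin, Hoxb13 is a posterior homeobox factor, and Grhl2 and the epithelial ETS factors maintain genes of epithelial junctions and secretion. Trp63 is the defining factor of basal cells and is not a feature of the luminal secretory cells that surround the duct lumen.

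The question of the study was how luminal cells differ between the intact, the regressed and the regrown gland. All mice were male and carried Hoxb13-rtTA with TetO-H2BGFP, a doxycycline-dependent transactivator under Hoxb13 control that switches on a histone-bound green fluorescent protein, and all drank doxycycline at 2 mg/ml for 1 week before collection. The regenerated group (n = 4 arrays) had been castrated at 12 weeks of age, left for 6 weeks of regression and given testosterone for 4 weeks from silastic implants. The castrated group (n = 3) had been castrated at 12 weeks and left for 6 weeks, and the intact group (n = 3) was untreated, with its age at collection not given in the sources used here. Between regenerated and castrated mice, testosterone therefore cannot be told apart from a longer time since castration and a greater age. Wording such as higher with testosterone, or after testosterone, names this comparison below and not a cause. Cells were collected as green, CD24 positive and intermediate for CD49f, and cells bearing immune markers were left out. Because the gate used the Hoxb13-driven reporter, every Hoxb13 value below is a level in cells that passed it. Arrays of a group are labelled as biological replicates, but whether each came from 1 mouse or several mice is not stated, and the p-values below reflect array-to-array spread only.

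Values are log2 RMA intensities on Affymetrix whole-transcript arrays, and a level may be compared between groups for the same gene but not between genes. A gene is said to be called, or to have risen or fallen, where limma's moderated test gave a Benjamini-Hochberg adjusted p under 0.05 over all 30142 genes. Changes are given with their standard error. The 23 background control rows had a 95th percentile of 4.76 and a highest value of 6.40 over all arrays. The value of 6.40 came from castrated replicate 3, and the highest background value of each other array lay between 4.66 and 5.58. Values near or under the limits of 4.76 and 6.40 were treated as carrying little signal. Fewer expressing cells and less RNA per cell cannot be told apart in such bulk samples.

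On the first principal component, with 44.3% of the variance, castrated arrays lay between 64.1 and 75.5, intact arrays between -47.6 and -40.5, and regenerated replicates 1 to 3 between -31.0 and -23.2. Regenerated replicate 4 lay apart at 3.03. Results without it are given for some changes of Hoxb13, Gata2 and Foxa1, and not for every gene. The luminal marker genes averaged 14.83 to 15.15 in regenerated arrays, 15.63 to 15.89 in castrated arrays and 14.61 to 14.64 in intact arrays, with 0 of 8 at background. Krt8, Krt18, Krt19, Dpp4 and Cd24a, the gene of the sort marker CD24, were called higher in castrated than intact arrays. The Krt8 call was lost without any 1 of 6 arrays. Pbsn went the other way (-0.51, not called). For regenerated against castrated, Pbsn was called higher (1.55, limma adjusted p = 8.71e-04), and Krt8 and Krt18 lower (-2.05 and -1.69). Of the markers of other cells, 7 of 8 stromal, 3 of 4 endothelial, 3 of 5 leukocyte and 4 of 5 neuroendocrine genes were at or under the background percentile in every array. The stromal exception, Dcn, a matrix proteoglycan, had a castrated minus intact change of -4.70 (log2, called) and a regenerated minus castrated change of 3.83 (called). The leukocyte genes averaged 5.05 to 5.51 in regenerated, 5.58 to 6.56 in castrated and 4.80 to 5.73 in intact arrays. Ptprc, the gene of CD45, was at background throughout, while Cd3e, a T cell receptor subunit, averaged 6.40 in regenerated, 10.45 in castrated and 7.05 in intact arrays. Cd68, the other leukocyte gene above background, averaged 8.43 in regenerated, 8.92 in castrated and 8.27 in intact arrays and was not called. Cd3e was called for regenerated against castrated (-4.04, limma adjusted p = 0.0253) and missed the threshold for castrated against intact (3.39, limma adjusted p = 0.0507), and Itgam, the gene of CD11b, was called higher with castration (0.38, limma adjusted p = 0.0181) at levels under the background percentile. The 6 urothelial markers averaged 7.87 to 8.30 in regenerated arrays, 9.22 to 9.85 in castrated arrays and 7.30 to 7.52 in intact arrays. Upk1b and Upk3a, which encode uroplakins of the bladder lining, were called higher in castrated than in intact arrays by 5.55 and 5.07 on the log2 scale. For regenerated against castrated both were called lower (-2.29 and -5.14), the Upk1b call being lost without any 1 of 7 arrays. The part of these marker differences in the changes below was not tested. The 6 seminal vesicle markers varied within groups, averaging 4.47 to 10.26 in regenerated, 6.36 to 6.54 in castrated and 6.90 to 9.88 in intact arrays, and 0 of 6 were called by limma in any comparison, with 3 at an unadjusted p under 0.05 for castrated against intact, 1 for regenerated against castrated and 0 for regenerated against intact.

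Promoter sequences are shown for Spdef, which was called higher with testosterone, and for Gata2, which was not, since both were called after castration. The windows are RefSeq sequences of mouse build GRCm38.p6 that run from 250 bases before to 50 bases after an annotated start. Spdef lies on the minus strand at chr17:27728902-27729201, and Gata2 has 2 annotated starts on the plus strand, at chr6:88193641-88193940 and chr6:88198414-88198713. Capitals mark the matches to the motifs searched.
Spdef: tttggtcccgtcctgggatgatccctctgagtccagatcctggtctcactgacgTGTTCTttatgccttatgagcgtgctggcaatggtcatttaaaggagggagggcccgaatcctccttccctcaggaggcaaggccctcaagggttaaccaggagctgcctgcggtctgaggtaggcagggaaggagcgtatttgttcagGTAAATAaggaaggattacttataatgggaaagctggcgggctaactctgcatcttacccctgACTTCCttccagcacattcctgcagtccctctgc
Gata2 start 1: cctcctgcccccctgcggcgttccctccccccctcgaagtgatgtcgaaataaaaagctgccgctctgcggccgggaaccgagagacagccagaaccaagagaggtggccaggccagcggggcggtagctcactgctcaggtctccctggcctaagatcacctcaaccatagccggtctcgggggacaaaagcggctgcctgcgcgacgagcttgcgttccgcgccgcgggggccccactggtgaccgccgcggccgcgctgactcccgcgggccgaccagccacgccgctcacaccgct
Gata2 start 2: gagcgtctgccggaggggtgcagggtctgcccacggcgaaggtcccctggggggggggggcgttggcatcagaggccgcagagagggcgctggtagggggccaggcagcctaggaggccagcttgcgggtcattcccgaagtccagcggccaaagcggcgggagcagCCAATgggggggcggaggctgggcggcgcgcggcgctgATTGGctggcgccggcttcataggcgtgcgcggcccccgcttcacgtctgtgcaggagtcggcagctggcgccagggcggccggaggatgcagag

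Each of 8 short motifs was searched on both strands. The steroid receptor half-site was spelled AGAACA, the core of forkhead FOXA sites GTAAANA and that of GATA sites AGATAA. The core bound by group 13 Hox proteins was spelled CAATAAA, the ETS core GGAAGT and the grainyhead core AACCNGTT. The TATA box was spelled TATAAA, and the CCAAT box by its own letters. Positions count from the start, with negative numbers before it and no position 0. The Spdef window held the half-site, read as TGTTCT, from position -196, the FOXA core GTAAATA from -47, and the ETS core, read as ACTTCC, from 17. The first Gata2 window held none of the 8 motifs. The second held a CCAAT box from position -83 and another on the opposite strand from -45. Among 32851 promoter windows of this length, 18.97% held the half-site, 12.36% the FOXA core, 23.77% the ETS core and 37.41% a CCAAT box, so single matches of these letters were common. The Spdef window had 53.33% GC and 7 CpG dinucleotides, near the medians of 52.67% and 7 over all windows, whereas the Gata2 windows had 69.33% and 73.67% GC with 32 and 29 CpG. The table matched 6 of the 10 genes: Hoxa13, Hoxd13, Foxa1, Gata2, Spdef and Elf3. In the other matched windows the Foxa1 window held a FOXA core, GTAAACA, from position -141, and the Hoxd13 window held a grainyhead core, AACCTGTT, from -102, a motif found in 2.09% of all windows. The Hoxd13 window also held overlapping matches to the TATA box, found in 13.62% of windows. CCAAT boxes were in the Hoxa13 window from -36, the Hoxd13 window from -212, the Foxa1 window from -157 and the Elf3 window from -93, so that 5 of the 7 windows of these genes held one. No window of these genes held the GATA core or the HOX13 core, which were in 11.18% and 4.60% of all windows. A match describes the letters only.

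**Figure D1:**
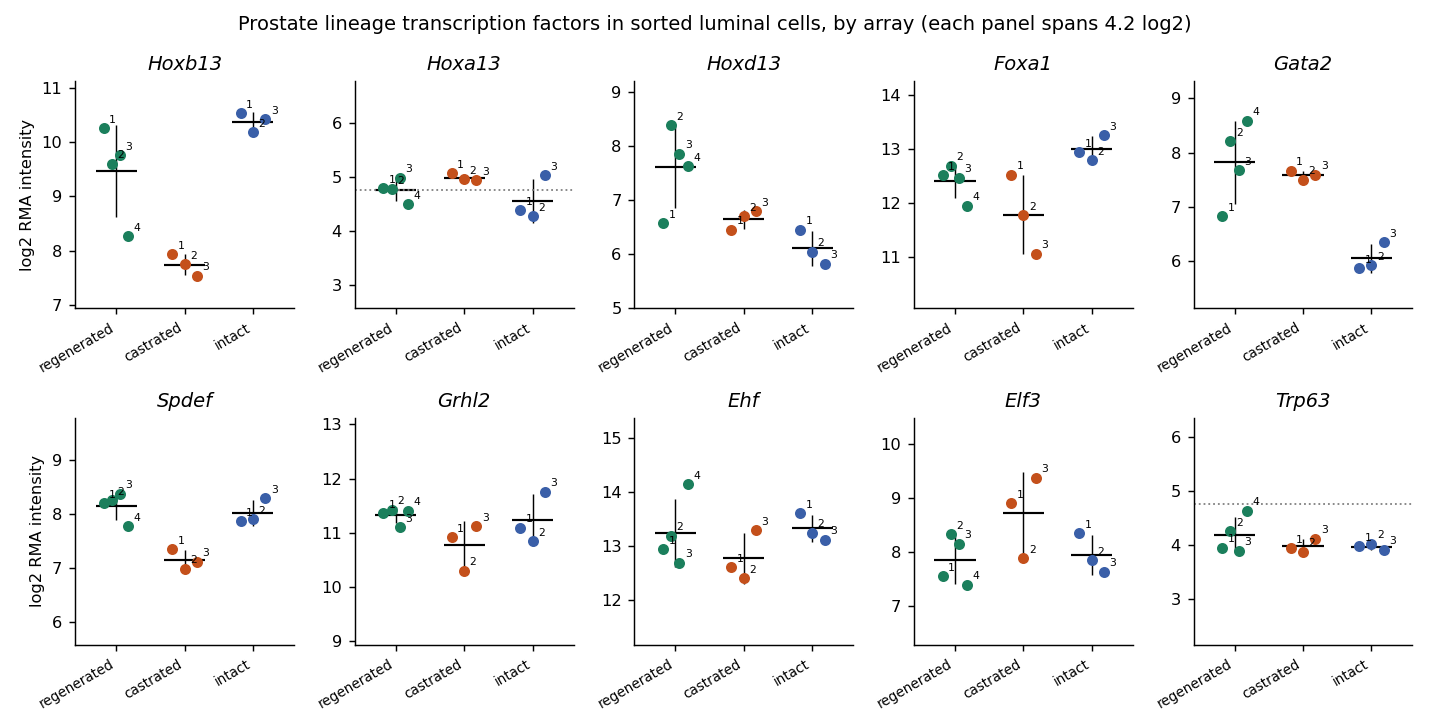
Log2 RMA intensity of the 10 genes in each array (points, with replicate numbers) and the group mean with its SD (bars) in regenerated (n = 4), castrated (n = 3) and intact (n = 3) mice. Each panel has its own vertical axis of equal span, and the dotted line is the 95th percentile of the background rows (4.76). Hoxb13 and Spdef are lowest in castrated arrays, Gata2 is lowest in intact arrays, and Trp63 lies under the dotted line throughout.

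Across the 3 groups together, Hoxb13, Gata2 and Spdef differed in the moderated F-test, with adjusted p-values of 0.0101, 0.0253 and 0.0275. These are 3 of 10 members, beside 6.51% of all genes. Hoxd13 had an adjusted p of 0.0612 and Foxa1 of 0.144 in the same test, and those of the remaining 5 genes were 0.323 or above. The 3 genes that passed showed 2 patterns of calls. Hoxb13 and Spdef were both lowest after castration, higher with testosterone and not called between regenerated and intact arrays, and Gata2 was lowest in the intact gland.

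The first comparison asked how luminal cells of the regressed gland differ from those of the intact gland. Hoxb13 and Spdef fell and Gata2 rose. The 3 called members of 10 stand beside 8.01% of all genes called in this comparison. By direction, 1 member was higher beside 4.82% of all genes, and 2 were lower beside 3.19%. The arrays of the 2 groups did not overlap for 5 members, Hoxb13, Spdef and Foxa1 lower and Gata2 and Hoxd13 higher in castrated mice, beside 28.9% of all genes. For Hoxd13 the lowest castrated value (6.448) was barely above the highest intact value (6.444). The median change of the 10 members was -0.22 and the median size of change 0.66, beside 0.04 and 0.15 over all genes. The median standard error was 0.37 over the members and 0.15 over all genes. Of all 30142 genes, 20138 had every group mean at or under the highest background value, as did Hoxa13 and Trp63 among the members. Shares and medians over all genes, in every comparison, thus include many genes with little signal. The members were not compared with genes of like level. Over all genes 1452 were called higher and 962 lower, and after quantile normalization 1095 were higher and 1136 lower. With every non-control row tested, named or not, the calls of Gata2 and Spdef were lost (limma adjusted p of 0.0594 and 0.0731).

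The second comparison asked which of these differences were present after testosterone. Hoxb13 and Spdef rose in regenerated relative to castrated arrays, which makes 2 of 10 members beside 4.98% of all genes. Both were higher, beside 1.97% of all genes, and 0 members were lower, beside 3.01%. The same 2 genes had arrays that did not overlap between the groups, beside 16.0% of all genes. The median change was 0.51 over the members and -0.01 over all genes. Both comparisons use the same castrated arrays, so opposite signs between them are not independent. The Hoxb13 call was lost with every non-control row tested (limma adjusted p = 0.0595) and with only the 2 groups in the fit (limma adjusted p = 0.0820).

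The third comparison set the regenerated against the intact gland, where 0 of 10 members were called with limma, beside 0.0365% of all genes (11 genes). At an unadjusted p under 0.05, Gata2 and Hoxd13 were higher in regenerated arrays, beside 6.61% of all genes, and Hoxb13 was lower, beside 3.40%. The arrays of 3 members did not overlap, Gata2 and Hoxd13 higher and Foxa1 lower in regenerated mice, beside 9.65% of all genes. The median change of the members was 0.11 and of all genes 0.01.

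**Figure D2:**
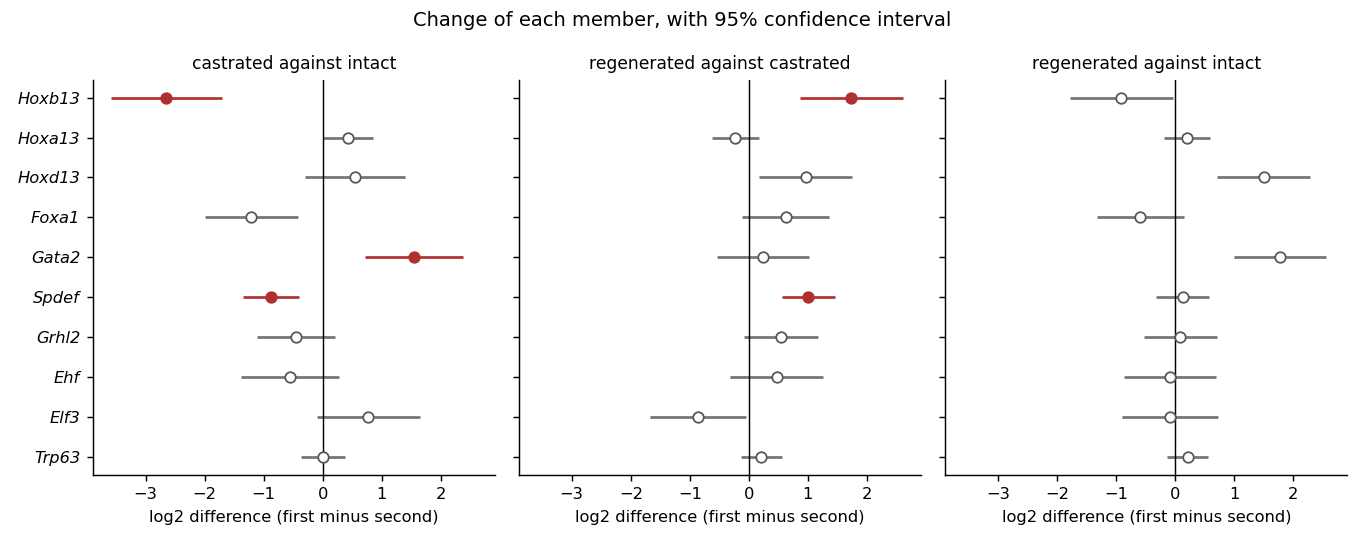
Log2 difference of each of the 10 genes (first group minus second group) with its 95% confidence interval in the 3 comparisons; filled points have an adjusted p under 0.05. Hoxb13 (-2.65) and Spdef (-0.87) lie left of 0 and Gata2 (1.54) right of it for castrated against intact, Hoxb13 and Spdef lie right of 0 for regenerated against castrated, and no point is filled for regenerated against intact.

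Among the homeobox genes, Hoxb13 is the posterior Hox gene of the prostate, and in mice its loss impairs secretory differentiation of the ventral lobe. Its log2 intensity was 10.27, 9.61, 9.76 and 8.26 in regenerated replicates 1 to 4, 7.93, 7.75 and 7.54 in castrated arrays, and 10.54, 10.19 and 10.43 in intact arrays. All castrated arrays lay below every other array, and regenerated replicate 4 was the nearest to them. The castrated mean of 7.74 ± 0.20 stood against an intact mean of 10.39 ± 0.17 (SD, n = 3 each), a change of -2.65 ± 0.42 (95% interval -3.58 to -1.71, limma adjusted p = 0.00416), or 6.27-fold higher in intact mice. The cells had nonetheless been gated on the Hoxb13-driven reporter in both groups.

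The regenerated mean of Hoxb13 was 9.47 ± 0.86 (SD, n = 4), higher than the castrated mean by 1.74 ± 0.39 (limma adjusted p = 0.0321), or 3.33-fold. Without regenerated replicate 4 this change was 2.14 (limma adjusted p = 5.91e-04), and the call was lost without any 1 of 8 other arrays, intact replicate 3 being the exception, with limma adjusted p-values of up to 0.105. The regenerated minus intact difference was -0.91 ± 0.39 (95% interval -1.79 to -0.04), which did not pass (limma unadjusted p = 0.0424, adjusted p = 0.475). Without regenerated replicate 4 the same difference was -0.51, and 1 regenerated array, replicate 1, lay within the intact range.

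The fall of Hoxb13 was set beside its neighbours in the Hoxb cluster. Of 10 measured genes there, Hoxb13 was called lower in castrated arrays, 0 were called higher, and 8 had a fitted value above 0. Hoxb9, which lies next to Hoxb13 among the measured genes, had 6.72, 7.31, 6.69 and 8.22 in regenerated arrays, 8.26, 7.48 and 7.60 in castrated arrays, and 6.38, 6.03 and 6.94 in intact arrays. Every castrated array was thus above every intact array for Hoxb9, and the castrated minus intact difference of 1.33 ± 0.41 missed the threshold (limma adjusted p = 0.0774). Differences of Hoxb8, Hoxb7, Hoxb6 and Hoxb5 ran from 0.48 to 0.82 and were not called, and 7 of the 10 genes had a group mean above the background percentile.

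Hoxa13 and Hoxd13 are paralogs of Hoxb13, and in mice they pattern the urogenital sinus from which the prostate buds. Hoxa13 stood at 4.79, 4.78, 4.99 and 4.50 in regenerated arrays, 5.08, 4.96 and 4.94 in castrated arrays, and 4.38, 4.28 and 5.03 in intact arrays. These values straddle the background percentile, all groups overlap, and the castrated minus intact difference of 0.43 ± 0.19 was not called (limma adjusted p = 0.232). It passed without intact replicate 3 (0.66, limma adjusted p = 0.0270) and with array weights (0.55, limma adjusted p = 0.0458).

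Hoxd13 had 6.57, 8.38, 7.85 and 7.62 in regenerated arrays, 6.45, 6.69 and 6.79 in castrated arrays, and 6.44, 6.04 and 5.81 in intact arrays. It was highest in regenerated replicates 2 to 4, while replicate 1 lay among the castrated arrays. Regenerated arrays exceeded intact ones by 1.51 ± 0.36 (limma unadjusted p = 0.00157, adjusted p = 0.255) and castrated ones by 0.96 ± 0.36 (limma adjusted p = 0.171), and neither passed. Without regenerated replicate 1 the differences were 1.85 (limma adjusted p = 0.0232) and 1.31 (limma adjusted p = 0.0184). The intact mean of 6.10 was under the highest background value.

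In the Hoxa cluster with the flanking Evx1 genes, all 10 measured genes had fitted castrated minus intact values above 0, beside 58.5% of all genes, and 2 were called higher, beside 4.82% of all genes. Only 5 of the 10 had a group mean above the background percentile, and 1, Hoxa10, above the highest background value. Hoxa10, a posterior Hox gene of the male and female reproductive tract, had castrated values of 7.35, 6.84 and 7.01 against intact values of 6.05, 5.92 and 6.23, a rise of 1.0 ± 0.27 (limma adjusted p = 0.0468). Hoxa5 rose by 0.72 ± 0.18 (limma adjusted p = 0.0348), with means of 5.23 in castrated and 4.51 in intact arrays, both under the highest background value. The call of Hoxa10 was lost without any 1 of 8 arrays, and that of Hoxa5 without any 1 of 6, with limma adjusted p-values of up to 0.154 and 0.137. In the Hoxd cluster 0 of 8 genes were called by limma in any comparison. At an unadjusted p under 0.05 they numbered 0 for castrated against intact, 3 for regenerated against castrated and 2 for regenerated against intact, and only Hoxd13 had a mean above the background percentile.

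**Figure D3:**
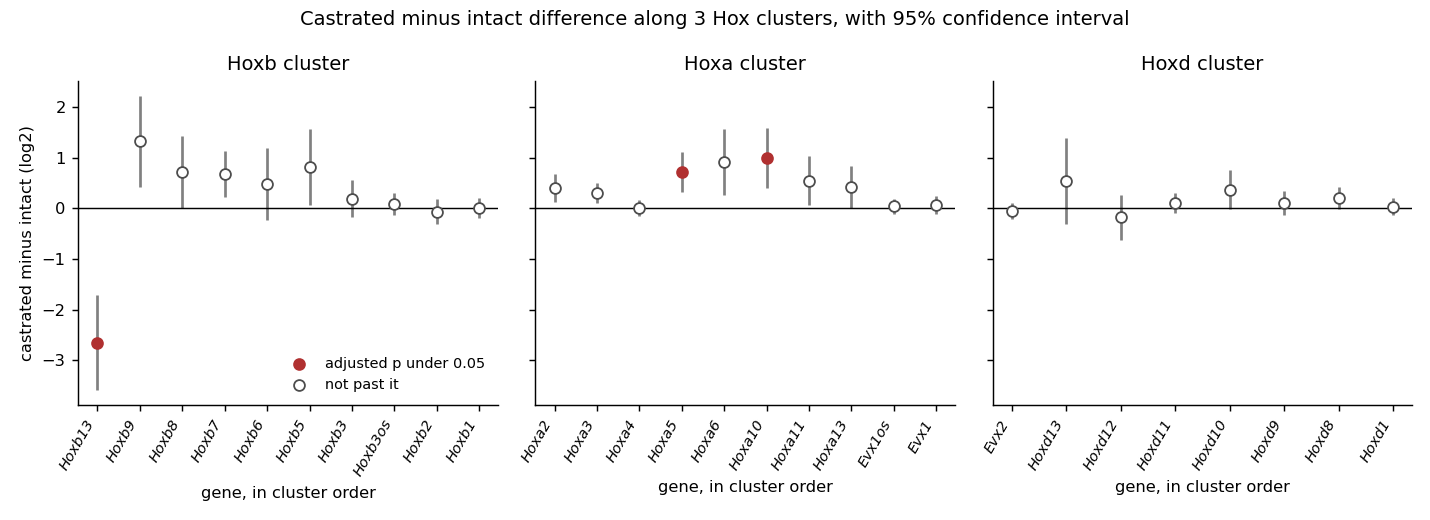
Castrated minus intact log2 difference with its 95% confidence interval for the measured genes of the Hoxb, Hoxa and Hoxd clusters, in cluster order; filled points have an adjusted p under 0.05. Hoxb13 lies at -2.65 while Hoxb9 to Hoxb5 lie between 0.48 and 1.33, and Hoxa5 and Hoxa10 are filled at 0.72 and 1.0.

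Over the 15 measured Hox genes of groups 9 to 13, 1 rose (Hoxa10) and 1 fell (Hoxb13) with castration, with a median change of 0.11 beside 0.04 over all genes. Among 8 Hox cofactors, TALE homeobox proteins of the Meis, Pbx and Pknox families that bind DNA with Hox proteins, Pknox2 fell. It averaged 5.36 ± 0.58 in castrated and 7.15 ± 0.42 in intact arrays (SD, n = 3 each), a change of -1.79 ± 0.34 (limma adjusted p = 0.0104). Spink1 and Sbp, secreted products reported lost from the ventral prostate of Hoxb13-deficient mice, are also known to need androgen. Sbp, the spermine-binding protein, had 12.08 ± 0.27 in castrated and 18.05 ± 0.06 in intact arrays (SD, n = 3 each), a change of -5.97 ± 0.19 (limma adjusted p = 9.67e-08), and it rose by 5.80 ± 0.18 in regenerated relative to castrated arrays (limma adjusted p = 9.76e-08). Spink1, a trypsin inhibitor, had 19.89, 19.68, 19.84 and 19.49 in regenerated arrays, 7.31, 6.20 and 10.25 in castrated arrays, and 19.89, 19.89 and 19.91 in intact arrays. It was called in both comparisons, but the regenerated and intact values sat near the top of the scale (19.93) and castrated replicate 2 was under the highest background value, so no size of change is given.

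Foxa1 is a pioneer factor that opens chromatin and is needed for duct formation in the mouse prostate. Its log2 intensity was 12.51, 12.69, 12.47 and 11.95 in regenerated arrays, 12.52, 11.77 and 11.06 in castrated arrays, and 12.94, 12.79 and 13.26 in intact arrays. The castrated arrays spread over more than 1 log2 unit, and all lay below the intact arrays. The castrated minus intact difference was -1.21 ± 0.36 (95% interval -2.0 to -0.42) and just missed the threshold (limma adjusted p = 0.0667). It passed with dim genes left out (limma adjusted p = 0.0356), with array weights (0.0283), with quantile normalization (0.0464), without castrated replicate 1 (-1.58, 0.0212) and without regenerated replicate 4 (0.0441). The regenerated minus castrated difference was 0.62 ± 0.33 (limma adjusted p = 0.354) and the regenerated minus intact difference -0.59 ± 0.33 (limma adjusted p = 0.618), neither of which was called.

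Gata2, a zinc finger factor that binds enhancers of androgen-responsive genes in human prostate cancer cells, had the opposite castration response to Hoxb13. It had 6.82, 8.21, 7.67 and 8.59 in regenerated arrays, 7.66, 7.5 and 7.59 in castrated arrays, and 5.85, 5.92 and 6.35 in intact arrays. The intact arrays were below every other array and under the highest background value over all arrays. Each was still above the highest background value of its own array (5.53, 5.09 and 4.66 in intact replicates 1 to 3). Gata2 rose with castration to 7.58 ± 0.08, against 6.04 ± 0.27 in intact arrays (SD, n = 3 each), a change of 1.54 ± 0.38 (limma adjusted p = 0.0319). No fold is given, since intensities so close to background can be compressed. The call was lost without any 1 of intact replicates 1 and 2 and the 3 castrated arrays (limma adjusted p up to 0.124) and with quantile normalization (limma adjusted p = 0.0657).

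After testosterone the values of Gata2 lay on both sides of the castrated level. The regenerated mean was 7.82 ± 0.77 (SD, n = 4), and the regenerated minus castrated difference was 0.24 ± 0.35 (95% interval -0.54 to 1.02, limma adjusted p = 0.785). Without regenerated replicate 4, the highest, this difference turned slightly negative. All 4 regenerated arrays exceeded all 3 intact arrays, and the difference of 1.78 ± 0.35 (95% interval 1.0 to 2.56) ranked 76th of all genes by unadjusted p (4.25e-04) in that comparison. It did not pass over all genes (limma adjusted p = 0.168), and without regenerated replicate 1, the lowest, it was 2.12 (limma adjusted p = 0.0139). Without regenerated replicate 4, the difference from intact arrays was smaller than with all arrays. Among 8 measured FoxA and GATA factors Gata2 was the 1 called for castrated against intact, and 0 were called by limma in the other comparisons, with 1 at an unadjusted p under 0.05 in each. Foxa2, Foxa3, Gata4, Gata5 and Gata6 had castrated and intact means under the background percentile, between 3.21 and 4.43.

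Spdef encodes the prostate-derived ETS factor, which in mouse airway and gut drives the maturation of secretory goblet cells. It had 8.20, 8.25, 8.38 and 7.78 in regenerated arrays, 7.35, 6.99 and 7.12 in castrated arrays, and 7.87, 7.90 and 8.30 in intact arrays. The castrated arrays lay below all others, and the regenerated and intact arrays overlapped. Spdef fell to 7.15 ± 0.18 with castration, against 8.03 ± 0.24 in intact arrays (SD, n = 3 each), a change of -0.87 ± 0.22 (limma adjusted p = 0.0338), or 1.83-fold higher in intact mice. The regenerated mean of 8.15 ± 0.26 (SD, n = 4) exceeded the castrated mean by 1.0 ± 0.20 (limma adjusted p = 0.0188), or 2.0-fold. Regenerated and intact arrays differed by 0.13 ± 0.20 (95% interval -0.32 to 0.58, limma adjusted p = 0.926). The castration call was lost without any 1 of 6 arrays (limma adjusted p up to 0.118), and the testosterone call without castrated replicate 2 or 3 or regenerated replicate 2 or 3 (limma adjusted p up to 0.0847).

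Beside Spdef, 7 genes linked to it in secretory cells were measured, of which 2 fell with castration and 1 rose with testosterone. Agr2, a protein disulfide isomerase of the endoplasmic reticulum made by mucus cells, had 15.09, 15.66, 15.98 and 15.51 in regenerated arrays, 13.58, 12.12 and 13.29 in castrated arrays, and 14.62, 14.97 and 14.90 in intact arrays. All castrated arrays were the lowest and all regenerated arrays the highest. Agr2 changed by -1.83 ± 0.36 with castration (limma adjusted p = 0.0120, and 0.0534 without intact replicate 2) and by 2.56 ± 0.34 with testosterone (limma adjusted p = 0.00193). Creb3l4, a membrane-bound bZIP factor of androgen-responsive prostate cells, fell by 1.82 with castration (limma adjusted p = 0.0374), a call lost without any 1 of 7 arrays (limma adjusted p up to 0.135).

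Ehf and Elf3 are ETS factors restricted to epithelia, where Ehf maintains differentiation and Elf3 can be induced by inflammatory signals in human cells. Ehf had 12.93, 13.18, 12.68 and 14.14 in regenerated arrays, 12.61, 12.40 and 13.29 in castrated arrays, and 13.60, 13.24 and 13.12 in intact arrays, with all groups overlapping. Elf3 had 7.55, 8.32, 8.15 and 7.39 in regenerated arrays, 8.89, 7.88 and 9.37 in castrated arrays, and 8.34, 7.85 and 7.63 in intact arrays, and castrated replicates 1 and 3 were the highest. The castrated minus intact difference was -0.55 ± 0.38 for Ehf (limma adjusted p = 0.473) and 0.77 ± 0.39 for Elf3 (limma adjusted p = 0.306). The regenerated minus castrated difference of Elf3 was -0.86 ± 0.37, which was not called (limma unadjusted p = 0.0404, adjusted p = 0.239). That of Ehf was 0.47 ± 0.35 (limma adjusted p = 0.535). Ehf was highest of all arrays in regenerated replicate 4, and its difference without that array is not given here.

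Of 18 measured ETS factors, Ets2 and Etv6 rose and Spdef fell with castration, and all 3 were called with the opposite sign for regenerated against castrated. Ets2, an effector of Ras and MAP kinase signalling, had 7.59, 8.45, 7.80 and 8.12 in regenerated arrays, 11.49, 11.16 and 10.92 in castrated arrays, and 8.10, 8.31 and 7.83 in intact arrays. The castrated arrays were more than 2 log2 units above all others. Ets2 rose by 3.11 ± 0.27 with castration (limma adjusted p = 1.57e-04) and fell by 3.20 ± 0.25 in regenerated relative to castrated arrays (limma adjusted p = 9.34e-05), and both calls were kept without any 1 array. Etv6, a transcriptional repressor, rose by 1.22 ± 0.24 (limma adjusted p = 0.0128), a call lost without intact replicate 2 (limma adjusted p = 0.0601). Its change of -0.93 in regenerated against castrated arrays (limma adjusted p = 0.0428) was lost without any 1 of 8 arrays (limma adjusted p up to 0.132). The median change of the ETS list was 0.07 for castrated against intact and -0.07 for regenerated against castrated, beside 0.04 and -0.01 over all genes.

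Grhl2, which keeps genes of epithelial junctions active, had 11.35, 11.42, 11.10 and 11.40 in regenerated arrays, 10.91, 10.29 and 11.12 in castrated arrays, and 11.09, 10.84 and 11.76 in intact arrays. Castrated replicate 2 was the lowest and the groups overlapped. The castrated minus intact difference was -0.46 ± 0.30 (95% interval -1.12 to 0.21, limma adjusted p = 0.454), and regenerated minus castrated was 0.55 ± 0.28 (limma adjusted p = 0.331). Of the 6 grainyhead factors 0 were called by limma in any comparison, with 1 at an unadjusted p under 0.05 in each. Of 10 junction and splicing genes linked to Grhl2, Prom2, a membrane glycoprotein of epithelial protrusions, fell by 2.89 with castration (limma adjusted p = 0.0464), a call lost without any 1 of 7 arrays (limma adjusted p up to 0.152). Cldn4, a tight junction claudin, fell by 2.12 ± 0.45 in regenerated relative to castrated arrays (limma adjusted p = 0.0235), a call lost without any 1 of castrated replicates 1 and 2 and regenerated replicates 1 and 3 (limma adjusted p up to 0.0925). Zeb1, a repressor of epithelial genes that opposes Grhl2, had 5.45 ± 0.50 in castrated and 4.61 ± 0.06 in intact arrays (SD, n = 3 each), a rise of 0.84 ± 0.21 (limma adjusted p = 0.0341) at levels under the highest background value. That call was lost without any 1 of 6 arrays (limma adjusted p up to 0.122). For regenerated against castrated Zeb1 changed by -0.82 ± 0.19 (limma adjusted p = 0.0393), a call lost without any 1 of 8 arrays (limma adjusted p up to 0.105). In both comparisons Zeb1 was the 1 called gene among 7 factors of the epithelial and mesenchymal switch.

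Trp63, the basal lineage factor, was at background in all arrays. Its values were 3.95, 4.26, 3.89 and 4.63 in regenerated arrays, 3.94, 3.88 and 4.12 in castrated arrays, and 3.97, 4.02 and 3.91 in intact arrays. None of the 10 exceeded the background percentile of 4.76, and the row does not separate the isoforms of the gene. The castrated minus intact difference was 0.01 ± 0.17 (limma adjusted p = 0.987), with a sign that turned under array weights, median centring and quantile normalization. Trp73, the other measured gene of the p53 family, was not called either, and 0 of these 2 genes had an unadjusted p under 0.05 in limma in any comparison. Of 13 basal genes linked to Trp63, 3 were called higher in castrated arrays and Perp, a desmosome protein, lower (a change of -1.39), and Krt17 and Fat2 were called lower in regenerated than castrated arrays. Krt17, a basal and stress keratin, had 4.59, 4.59, 4.52 and 4.56 in regenerated arrays, 6.0, 5.63 and 5.52 in castrated arrays, and 4.21, 4.71 and 4.28 in intact arrays. It rose by 1.31 ± 0.16 with castration (limma adjusted p = 8.75e-04) and fell by 1.15 ± 0.15 in regenerated relative to castrated arrays (limma adjusted p = 0.00160), and both calls were kept without any 1 array. The others called higher with castration were Fat2, a protocadherin, by 1.36 and Krt14, a basal keratin, by 0.52, and all 3 had means under the highest background value. The regenerated minus castrated change of Fat2 was -1.0 (limma adjusted p = 0.0417), a call lost without any 1 of 8 arrays (limma adjusted p up to 0.102) and in 14 of 20 alternatives in all. The castration calls of Krt14 and Perp were lost without any 1 of 7 and 3 arrays (limma adjusted p up to 0.175 and 0.0887). The 5 basal markers averaged 5.83 to 6.43 in regenerated, 5.85 to 6.0 in castrated and 5.41 to 5.55 in intact arrays. Krt15 weighed most in these averages, with means of 12.48 in regenerated, 11.14 in castrated and 9.95 in intact arrays, and was not called. Krt5, Krt14, Trp63 and Col17a1 had group means under the highest background value. From castrated to regenerated arrays Krt5 and Krt14 differed by -0.45 and -0.34, not called. The part of the basal markers in these changes was not tested.

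Of the other prostate epithelial transcription factors listed, 10 were measured beside the members, and 3 were called for castrated against intact. Sox9, a factor of prostate bud and progenitor cells, had 10.81 ± 0.24 in castrated and 9.36 ± 0.50 in intact arrays (SD, n = 3 each), a rise of 1.45 ± 0.28 (limma adjusted p = 0.0102). Sox4 rose by 2.92 ± 0.61 (limma adjusted p = 0.0164) and Creb3l4 fell as given above. The Sox9 call was lost without intact replicate 1 or 2 (limma adjusted p of 0.0589 and 0.0531) and the Sox4 call without intact replicate 1 (limma adjusted p = 0.0725). Runx1, a core-binding factor, fell by 1.29 ± 0.29 in regenerated relative to castrated arrays (limma adjusted p = 0.0321), a call lost without any 1 of 6 arrays (limma adjusted p up to 0.106).

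For the 3 members that passed the F-test, the genes of nearest profile were sought by the root mean square difference of log2 values, each gene centred on its own mean over the 10 arrays. Hoxb13, with an SD of 1.21 over the arrays, was nearest to Ubqln2, a proteasome shuttle factor (0.19), Rab3d, a GTPase of secretory granules (0.20), and Rnf130, a ubiquitin ligase (0.22). Gata2, with an SD of 0.94, was nearest to Arhgap8, a GTPase-activating protein (0.28), Vav2, a nucleotide exchange factor (0.29), and Alox12e, an epidermal lipoxygenase (0.29). Spdef, with an SD of 0.51, was nearest to Sytl1, a Rab27 effector (0.13), Cog1, of the Golgi tethering complex (0.14), and Krtcap2, of the oligosaccharyltransferase (0.14). These genes were picked for their likeness from all single-symbol genes, so the values are descriptions with no test. The intermediate position of regenerated replicate 4 in the Hoxb13 profile recurs in its 3 nearest genes. They were picked for likeness over all 10 arrays, this one included, so this adds no evidence about that array.

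**Figure D4:**
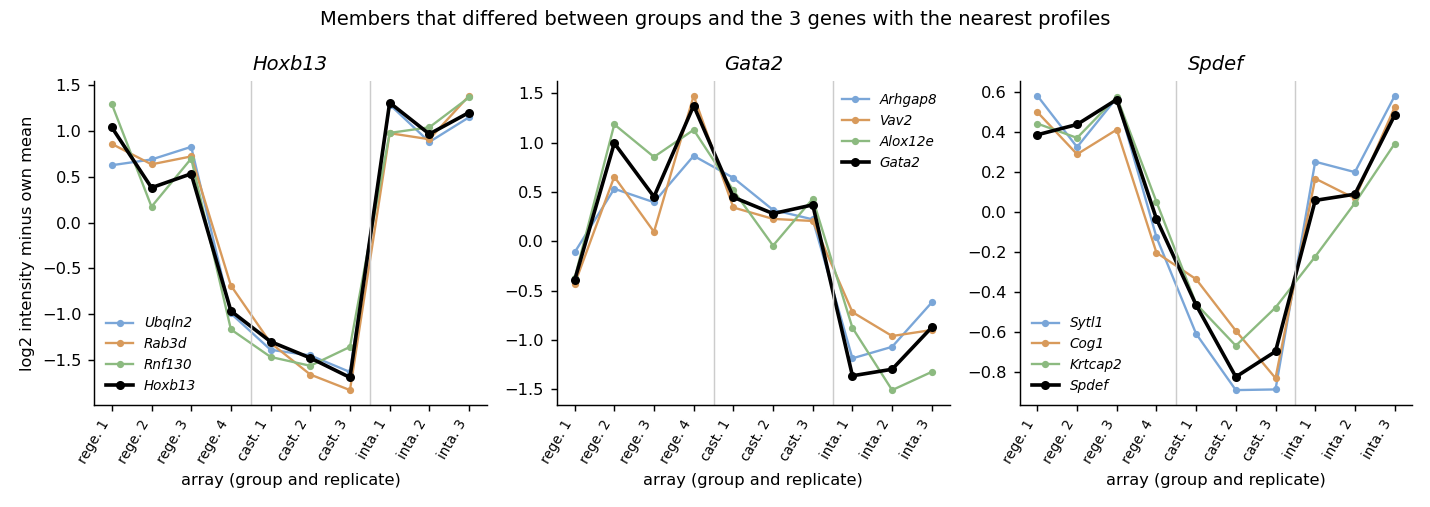
Log2 intensity minus the gene's own mean over the 10 arrays for Hoxb13, Gata2 and Spdef (black) and the 3 genes of nearest profile (colours), by array in the order regenerated (rege.), castrated (cast.) and intact (inta.). The black and coloured lines run close together, within a root mean square difference of 0.22 for Hoxb13, 0.29 for Gata2 and 0.14 for Spdef.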

How the data were processed

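RNA from 10 sorted samples was read on Affymetrix ClariomD (MTA-1.0) arrays, 1 array a sample. The deposited table gives 72688 rows of log2 values. Per the submitters' processing notes they were summarised by RMA within Affymetrix Expression Console, of unstated version, and no genome build is named. This method forces the arrays to a common distribution, so a shift of all transcripts 1 way would be reduced. Of 65956 non-control rows, 30604 had 1 gene symbol, 2146 several (left out) and 33206 none listed, and 827 symbols were updated through a RefSeq table of GRCm38.p6. The brightest row of a gene was kept, which left 30142 genes. No column was left unused. Arrays have no sequencing depth, and their number limits the precision.

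A linear model per gene (limma 3.58.1 under R 4.3.3, lmFit and eBayes with a mean-variance trend) was fitted over 3 groups with 7 residual degrees of freedom and no covariate, two-sided, with Benjamini-Hochberg adjustment over all genes. The code was checked on simulated data beforehand. Alternatives were every non-control row, averaged rows, dim genes left out, no trend, robust eBayes, array weights, median centring, quantile normalization, only the groups compared, a change of at least 1 log2, the replicate number as a block, and each array left out.

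The members, gene lists and motifs were chosen with earlier results of these data known, and the motif letters with the sequences at hand. Named are all members, per list at most 4 called genes with the largest change in a comparison, measured Hox cluster neighbours, and the 3 nearest profiles. Other genes with values, such as Foxa2 and Hoxb9, follow from the lists or clusters. Of 158 listed genes 145 were measured under 1 symbol, and 13 are not analysed here.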

Additional observations from a re-analysis of the deposited data

How the results depend on the processing

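Of 21 alternatives, the one requiring a change of at least 1 log2 alters no fitted value and gave counts only. The others gave 597 values of the 30 member changes. Of these, 544 kept direction and side of the threshold, 28 lost a call, 10 gained one and 15, all uncalled, turned direction. The cause was not tested. Hoxb13 for castrated against intact was called in every alternative, between -2.74 and -2.55. Members called for castrated against intact (3) numbered 1 with every row tested, 5 with array weights and 1 to 4 without 1 array; for regenerated against castrated (2), 1 with every row, 1 with only the 2 groups and 0 to 2 without 1 array; for regenerated against intact (0), 0 to 2 without 1 array; and in the F-test (3), 1 with every row and 1 to 4 without 1 array. Genes called for castrated against intact (2414) numbered 4258 with array weights and 1019 to 3271 without 1 array; for regenerated against castrated (1500), 822 with only the 2 groups and 816 to 2127 without 1 array; for regenerated against intact (11), 0 with every row or only the 2 groups, 26 with dim genes left out, 2 with no trend, 70 with array weights, 1 with quantile normalization, 4 with the replicate block and 0 to 78 without 1 array.

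Turned values were, for Trp63 castrated against intact, -0.0392 with array weights, -0.0426 with median centring, -0.0315 with quantile normalization, and -0.0596 to 0.06 without 1 array; for Gata2 regenerated against castrated, -0.0158 with the replicate block and -0.0158 to 0.57 without 1 array; and for regenerated against intact, Elf3 at 0.0694 with the replicate block and -0.24 to 0.12 without 1 array, Ehf at -0.39 to 0.0979, and Grhl2 at -0.10 to 0.36, without 1 array.

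Same-numbered arrays of different groups had correlations of deviations between -0.16 and 0.26. Differently numbered arrays were not set beside them, so these values cannot show whether the numbers pair the samples. With the replicate block 3, 2 and 0 members were called in the 3 comparisons. With 3 or 4 arrays a group, and Trp63, Hoxa13 and intact Gata2 near background, small differences of these genes were not detectable.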
